A study of Saccharomyces cerevisiae with 12 samples.

Results

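The genes described here encode the enzymes that lead from acetyl-CoA through mevalonate to farnesyl diphosphate and squalene in budding yeast. They were taken by systematic name as the 10 rows for ERG10 (YPL028W), ERG13 (YML126C), HMG1 (YML075C), HMG2 (YLR450W), ERG12 (YMR208W), ERG8 (YMR220W), MVD1 (YNR043W, also called ERG19), IDI1 (YPL117C), ERG20 (YJL167W) and ERG9 (YHR190W), out of 5994 open reading frames in the table. RNA of a hal4hal5 double mutant, which lacks the protein kinase genes HAL4 (SAT4) and HAL5, was hybridised against RNA of its wild type on 12 two-colour arrays. There were 3 sets of 4 arrays, namely W303 strains in YPD of pH 6.0, W303 strains at pH 4.5 in the same medium, and BY4741 strains, also at pH 4.5. Wild type and mutant of a set shared strain background and medium, and all cultures were grown at 28 °C and harvested in log phase. The labels give no alleles, marker genotypes or clone numbers for the strains, and the kinases act together in keeping the potassium transporters at the plasma membrane.

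The mevalonate pathway makes the isoprenoid units from which yeast builds ergosterol, ubiquinone, dolichol, haem A and the prenyl anchors of small GTPases. Acetyl-CoA is condensed to HMG-CoA, which HMG-CoA reductase turns into mevalonate, the main control point of the pathway. Mevalonate is phosphorylated, decarboxylated and isomerised, and the products are joined to farnesyl diphosphate, where the sterol branch begins with squalene synthase. Transcription of many of these genes answers to sterol level, oxygen and haem.

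Values are ratios of mutant over wild type on a log2 scale, so that -1 stands for a halved signal in the mutant. No source used here states the logarithm's base, and base 2 was inferred from the range of the deposited values, -7.15 to 5.55, so the fold changes hold only for that base. The direction is likely rather than settled. The deposited ratio was read as Cy5 over Cy3 and its sign was changed on the 5 arrays where the mutant carried Cy3. Read in this way, the deleted gene SAT4 was below 0 on 9 of 10 arrays with a value and HAL5 on 9 of 11. SAT4 lay between -1.74 and 0.62 in W303 at pH 6.0 and only between -0.23 and -0.09 in W303 at pH 4.5. In BY4741 it had -0.73 and -0.96 on replicates 1 and 3 and no value on the others. HIS3, a common marker gene, was above 0 on all 12 arrays. It lay between 1.73 and 2.78 on the W303 arrays but between 0.03 and 0.37, near 0, on those of BY4741. The ratios of HAL5 were small for a deleted gene, with means of -0.03 (n = 3) in W303 at pH 6.0, -0.10 in W303 at pH 4.5 and -0.51 in BY4741. If the direction were the opposite, every rise and fall given here would change places. The labels call the 4 arrays of a set biological replicates. Single arrays held 4418 to 5696 values, and the precision is limited by the number of arrays.

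Arrays of a set differed in how well they resembled each other across genes. The mean correlation of an array with the others of its set was 0.186 to 0.525 in W303 at pH 6.0, with replicate 3 lowest, between 0.898 and 0.933 for W303 at pH 4.5, and between 0.608 and 0.695 for BY4741. The median absolute log2 ratio of an array was 0.20 to 0.33 in W303 at pH 6.0, between 0.30 and 0.33 for W303 at pH 4.5, and between 0.17 and 0.22 for BY4741. In BY4741, arrays of the same dye orientation correlated at 0.754 and 0.839 and arrays of opposite orientation at 0.505 to 0.679. For W303 at pH 6.0 these were 0.439 and 0.535 against -0.091 to 0.584, with replicates 2 and 3 negatively correlated. For W303 at pH 4.5 they were 0.899 to 0.948 against 0.878 to 0.914.

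The mutant of W303 at pH 4.5 had lower signals almost throughout the pathway, that of BY4741 had lower ERG13, HMG1, HMG2, ERG8 and MVD1, and at pH 6.0 no member passed the test. The threshold for calling a gene was 0.05 on limma's p-value after Benjamini-Hochberg adjustment across every gene tested. For W303 at pH 6.0, 0 of the 10 genes were called, where 1.44% of all 4856 genes were called lower and 1.92% higher, and 3 of the 10 were lower at an unadjusted p below 0.05, against 9.47% of all genes. The W303 arrays at pH 4.5 had 9 of the 10 called lower, where 33.1% of all 5501 genes were, and 0 higher, where 36.1% were. The BY4741 arrays had 5 of the 10 called lower, where 15.4% of all 5461 genes were, and 0 higher, where 15.9% were. No set had a member that was higher at an unadjusted p below 0.05. The median log2 ratio of the 10 genes was -0.20 in W303 at pH 6.0, -0.34 in W303 at pH 4.5 and -0.26 in BY4741, and that of all genes tested was 0.01, 0.03 and -0.01 in the same order. A size of at least 1.5-fold together with a call was reached by 0, 3 and 2 of the 10 genes in that order. The share of all genes reaching both was not counted, so these numbers have nothing to be set against.

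**Figure D1:**
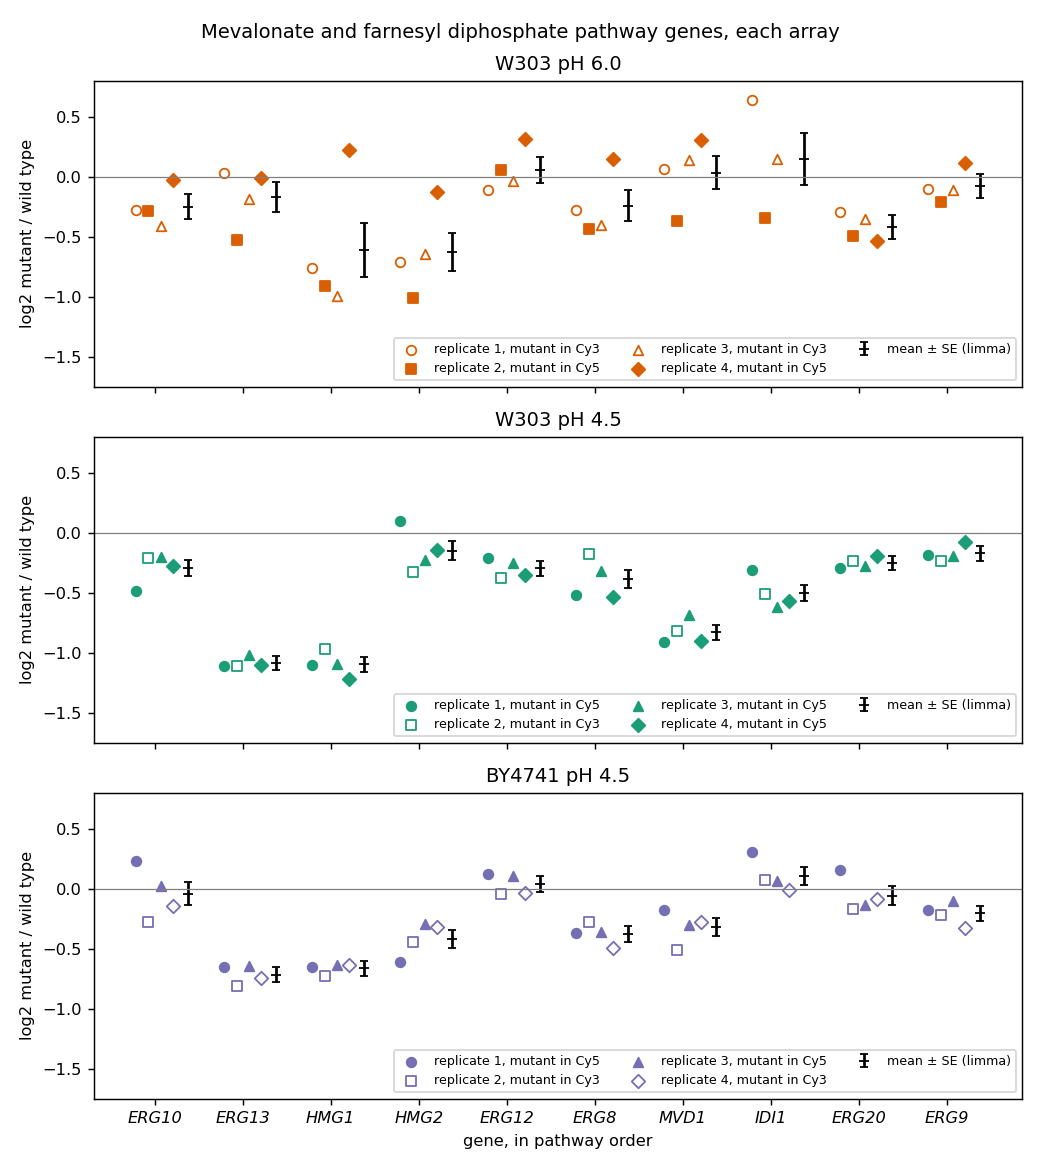
Log2 ratio of mutant over wild type (vertical axis) for the 10 pathway genes in pathway order (horizontal axis), with a panel for each array set and a symbol for each replicate array, filled where the mutant was in Cy5. Bars are means with the moderated standard errors. ERG13 and HMG1 lie near -1.1 on the W303 arrays at pH 4.5 and near -0.7 on the BY4741 arrays, and replicate 4 of W303 at pH 6.0 is the highest array of its set for all genes it measured except ERG13 and ERG20.

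The pathway starts with ERG10, the acetoacetyl-CoA thiolase, and ERG13, the HMG-CoA synthase. The means of these genes of consecutive steps lay far apart at pH 4.5 in both backgrounds but not at pH 6.0. ERG13 had log2 ratios of 0.03, -0.52, -0.18 and -0.01 on replicates 1 to 4 of W303 at pH 6.0, of -1.11, -1.11, -1.01 and -1.10 in W303 at pH 4.5 and of -0.65, -0.81, -0.65 and -0.74 in BY4741. The ranges of the 3 sets did not overlap. At pH 6.0 the W303 mean was -0.17 ± 0.13 (SE, n = 4, limma adjusted p = 0.53). The W303 mean at pH 4.5 was -1.08 ± 0.058 (SE, n = 4, limma adjusted p = 9.8e-07), and BY4741 had -0.71 ± 0.063 (SE, n = 4, limma adjusted p = 0.00072). ERG13 was thus 2.12-fold lower in the mutant of W303 at pH 4.5 and 1.64-fold lower in that of BY4741. Only 1.00% and 1.06% of the genes tested in those sets had a lower mean.

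ERG10 had means nearer 0 than ERG13 at pH 4.5 in both backgrounds but not at pH 6.0, a difference that was not tested. Its ratios ran between -0.41 and -0.02 in W303 at pH 6.0, between -0.48 and -0.20 in W303 at pH 4.5 and between -0.28 and 0.24 in BY4741. The mean was called only in W303 at pH 4.5 (-0.29 ± 0.068 SE, n = 4, adjusted p = 0.0045), with -0.25 at pH 6.0 and -0.04 in BY4741. The BY4741 values split by dye, with a mean of 0.13 where the mutant carried Cy5 and -0.21 where it carried Cy3.

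HMG1 and HMG2 encode paralogous HMG-CoA reductases, of which HMG1 is known to supply most of the activity in aerobic cells and HMG2 to be favoured when oxygen is short. HMG1 had log2 ratios of -0.76, -0.91, -0.99 and 0.22 on replicates 1 to 4 of W303 at pH 6.0, -1.10, -0.97, -1.09 and -1.22 on the W303 arrays at pH 4.5 and -0.65, -0.73, -0.64 and -0.64 in BY4741. Replicate 4 at pH 6.0 alone had a higher signal in the mutant. For W303 at pH 4.5 the mean of HMG1 was -1.10 ± 0.064 (SE, n = 4, adjusted p = 1.7e-06), a 2.14-fold lower signal in the mutant, and BY4741 had -0.66 ± 0.059 (SE, n = 4, adjusted p = 0.00073), 1.58-fold lower. At pH 6.0 the mean was -0.61 ± 0.22 (SE, n = 4, adjusted p = 0.22), and -0.89 without replicate 4. It was not called there either, but 0 of all 4023 genes were called lower in that fit, so it cannot decide about HMG1.

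HMG2 gave a different order of the sets. Its ratios were -0.71, -1.01, -0.65 and -0.13 on replicates 1 to 4 of W303 at pH 6.0, 0.10, -0.33, -0.23 and -0.14 on the W303 arrays at pH 4.5, and -0.61, -0.44, -0.29 and -0.32 in BY4741. Only BY4741, with a mean of -0.42 ± 0.075 (SE, n = 4, adjusted p = 0.009), was called. For W303 at pH 6.0 the mean was -0.62 (SE 0.16, n = 4, adjusted p = 0.11), and for W303 at pH 4.5 it was -0.15 (SE 0.077, n = 4, adjusted p = 0.12). HMG2 was the single member not called in W303 at pH 4.5, where replicate 1 had the opposite sign to the other arrays. Without that replicate its mean was -0.23 with an adjusted p of 0.019.

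The reductase genes were also compared within each array. The log2 ratio of HMG1 minus that of HMG2 averaged 0.01 ± 0.29 (SD, n = 4) in W303 at pH 6.0, -0.95 ± 0.25 (SD, n = 4) in W303 at pH 4.5 and -0.25 ± 0.14 (SD, n = 4) in BY4741. On the W303 arrays at pH 4.5 it lay between -1.20 and -0.64, below the range of W303 at pH 6.0, -0.35 to 0.35, and that of BY4741, -0.35 to -0.04. Over all arrays the mean difference was -0.39, it was below 0 on 10 of 12, and an exact two-sided sign-flip permutation test gave p = 0.017. That mean pools sets with the unlike means given above, so its p-value describes no single set. Within a set of 4 arrays this exact test cannot go below p = 0.125, which was its value in W303 at pH 4.5 and in BY4741, and it gave 0.875 at pH 6.0. Whether the HMG1 to HMG2 difference itself differed between sets was not tested. Spots of paralogs can share hybridising cDNA, probe sequences were not used here, and the part of such sharing in these values was not tested.

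**Figure D2:**
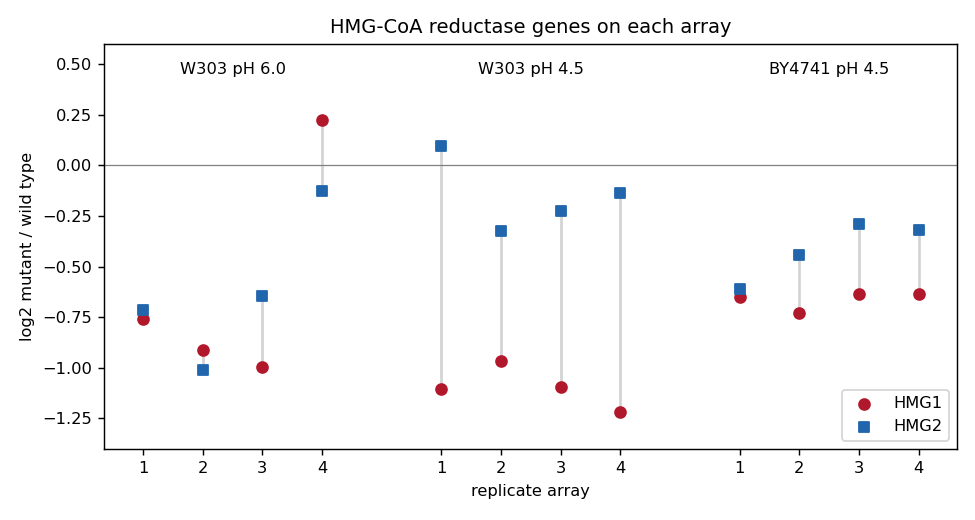
Log2 ratio of mutant over wild type (vertical axis) of HMG1 (circles) and HMG2 (squares) on each replicate array (horizontal axis), joined by a line for each array. The pair lies 0.64 to 1.20 apart on the W303 arrays at pH 4.5, with HMG1 lower, and at most 0.35 apart on the arrays of the other sets.

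Next come the kinases ERG12 (mevalonate kinase) and ERG8 (phosphomevalonate kinase), and MVD1, the decarboxylase that yields isopentenyl diphosphate. MVD1 had log2 ratios of 0.07, -0.37, 0.14 and 0.30 on replicates 1 to 4 of W303 at pH 6.0, -0.91, -0.81, -0.69 and -0.91 on the W303 arrays at pH 4.5, and -0.18, -0.51, -0.30 and -0.28 in BY4741. The W303 arrays at pH 4.5 lay below all arrays of the other sets. MVD1 fell by 0.83 in W303 at pH 4.5 (SE 0.064, n = 4, adjusted p = 8.7e-06) and by 0.32 in BY4741 (SE 0.073, n = 4, adjusted p = 0.02), and its mean at pH 6.0 was 0.04 (adjusted p = 0.92). The BY4741 call of MVD1 was lost without replicate 2, 3 or 4, with means of -0.25 to -0.33 and adjusted p-values of up to 0.079.

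ERG8 had means of -0.24, -0.39 and -0.37 in W303 at pH 6.0, W303 at pH 4.5 and BY4741, and was called in the last pair of sets with adjusted p-values of 0.0016 and 0.0076. Its 4 values lay between -0.43 and 0.15, -0.53 and -0.18, and -0.49 and -0.28 in the same order, so the sets overlapped. ERG12 was called only in W303 at pH 4.5, where it fell by 0.30 (SE 0.061, n = 4, adjusted p = 0.0023) and all arrays were between -0.38 and -0.21. On the arrays of W303 at pH 6.0 ERG12 lay between -0.11 and 0.32, and on those of BY4741 between -0.04 and 0.12.

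IDI1 isomerises isopentenyl diphosphate to dimethylallyl diphosphate, and ERG20 joins these units to geranyl and farnesyl diphosphate. IDI1 had log2 ratios of 0.64, -0.34 and 0.15 on replicates 1 to 3 of W303 at pH 6.0, with no value on replicate 4, -0.31, -0.51, -0.62 and -0.57 in W303 at pH 4.5, and 0.31, 0.07, 0.06 and -0.01 in BY4741. The pH 4.5 arrays of the W303 and BY4741 backgrounds did not overlap. IDI1 fell 1.41-fold in W303 at pH 4.5 (log2 -0.50 ± 0.069 SE, n = 4, adjusted p = 0.00022), against a mean of 0.11 (adjusted p = 0.3) in BY4741, and at pH 6.0 its mean of 0.15 rested on 3 arrays with an SE of 0.22. That mean split by dye, with -0.34 on the array with the mutant in Cy5 and 0.40 on the pair with Cy3, and was 0.027 with a dye term.

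ERG20 was measured at -0.29, -0.49, -0.35 and -0.53 on replicates 1 to 4 of W303 at pH 6.0, at -0.29, -0.23, -0.28 and -0.19 in W303 at pH 4.5 and at 0.16, -0.17, -0.13 and -0.08 in BY4741. All 8 W303 arrays had a lower signal in the mutant. The W303 mean was -0.42 ± 0.098 (SE, n = 4, adjusted p = 0.088) at pH 6.0, not called, and at pH 4.5 it was -0.25 (SE 0.058, n = 4, adjusted p = 0.0045). The BY4741 mean was -0.05 ± 0.076 (SE, n = 4, adjusted p = 0.61). ERG20 lies close to a deleted gene, with 1 protein-coding gene, QCR8 of the respiratory chain, between ERG20 and HAL5 in the RefSeq R64 gene order. QCR8 had means of 0.87 (n = 3, adjusted p = 0.072), 0.93 (adjusted p = 2.1e-06) and 1.48 (adjusted p = 0.00022) in W303 at pH 6.0, W303 at pH 4.5 and BY4741. A part of the deletion at HAL5 in the ERG20 values was not tested.

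ERG9, the squalene synthase that commits farnesyl diphosphate to sterols, changed least of the called genes. The W303 mean was -0.08 at pH 6.0, and at pH 4.5 it was -0.17 (SE 0.059, n = 4, adjusted p = 0.029), while BY4741 had -0.20 ± 0.065 (SE, n = 4, adjusted p = 0.054), just outside the threshold. The W303 call at pH 4.5 was lost on leaving out any 1 of the 4 arrays, with means of -0.15 to -0.20.

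Within an array, HMG1 was among the lowest 3 of the 10 genes on 11 of 12 arrays and ERG13 on 9 of 12, whereas ERG12, IDI1 and ERG9 were so on 0. The order of the means in W303 at pH 4.5 was HMG1, ERG13, MVD1, IDI1, ERG8, ERG12, ERG10, ERG20, ERG9 and HMG2, from lowest to highest. HMG1 and ERG13 differed there by less than their standard errors, as did ERG12, ERG10 and ERG20, and ERG9 and HMG2. Signs were also counted by array. All arrays had a lower signal in the mutant for 3 of the 10 genes in W303 at pH 6.0, 9 in W303 at pH 4.5 and 6 in BY4741, against 16.4%, 34.9% and 26% of all genes tested in that order. Replicate 4 of W303 at pH 6.0 stood apart from the other 11 arrays, with 4 of 9 measured genes below 0 and a median of 0.11. On the other arrays 6 to 10 of the 10 genes were below 0 and the medians lay between -0.44 and -0.18. Of all genes, 47.5% to 53.3% were below 0 on an array, with 49.7% on replicate 4 of W303 at pH 6.0. Replicate 3 of the same set, which resembled the others least across all genes, had 8 of the 10 genes below 0 and a median of -0.26.

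Medium and strain were compared through the difference in the mutant's effect, in a limma fit of all 12 arrays. Both differences use the same 4 arrays of W303 at pH 4.5, with opposite sign, so they are not independent of each other. Each side of a difference is a single array set, so medium or strain cannot be told apart from anything else that differed between the sets. For pH 6.0 minus pH 4.5 in W303, 4 of the 10 genes were called higher, where 10.7% of all 4755 genes were, and 0 lower, where 13.2% were (HMG2 alone was lower at an unadjusted p below 0.05). ERG13 differed most, by 0.91 ± 0.12 (SE, n = 12 arrays in the fit, adjusted p = 0.00031), followed by MVD1 with 0.87 ± 0.14 (SE, adjusted p = 0.00094), IDI1 with 0.65 (adjusted p = 0.029) and ERG12 with 0.35 (adjusted p = 0.028). All 4 were called lower at pH 4.5, and their means at pH 6.0 lay between -0.17 and 0.15.

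For ERG13 and MVD1 the call between media held in every alternative fit and without any single array of either set, with differences of 0.71 to 1.03 for ERG13 and 0.70 to 1.00 for MVD1. Those of IDI1 and ERG12 did not, and were lost among others when the arrays were scaled to equal spread (adjusted p of 0.092 and 0.10) or replicate 2, 3 or 4 of W303 at pH 4.5 was left out. HMG2 had the opposite sign, -0.48 (95% interval -0.84 to -0.11, adjusted p = 0.056), and its call appeared without replicate 4 of W303 at pH 6.0 (-0.64, adjusted p = 0.0067). HMG1 had 0.48 (95% interval 0.02 to 0.94, adjusted p = 0.11), and was called without replicate 3 of W303 at pH 6.0 (0.61, adjusted p = 0.036). The other 4 genes had differences between -0.17 and 0.15 that were not called, with 95% intervals reaching no further than -0.38 and 0.44.

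For W303 minus BY4741 at pH 4.5, 4 of the 10 genes were called lower, where 9.55% of all 4755 genes were, and 0 higher, where 10.9% were. The differences were -0.61 for IDI1 (SE 0.18, adjusted p = 0.033), -0.51 for MVD1 (SE 0.14, adjusted p = 0.022), -0.37 for ERG13 (SE 0.12, adjusted p = 0.045) and -0.34 for ERG12 (SE 0.11, adjusted p = 0.042). These calls did not withstand changes of the data: leaving out any 1 of the 8 arrays left 0 or 1 gene called. With arrays scaled to equal spread 0 were left and the ERG13 value turned to 0.018. Calls over all genes fell as well, from 454 lower of 4755. Without 1 array, 179 to 348 of 4509 to 4701 genes were called lower, and with scaled arrays 217 of 4755. HMG1 had -0.43 (95% interval -0.89 to 0.03, adjusted p = 0.17) and HMG2 0.27 (95% interval -0.09 to 0.63, adjusted p = 0.27), neither called. In a fit of these 2 sets alone HMG1 was called as well (-0.43, adjusted p = 0.0032), which made 5 genes lower. ERG8 and ERG9 had differences of -0.01 and 0.03, with 95% intervals from -0.31 to 0.28 and from -0.17 to 0.24.

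**Figure D3:**
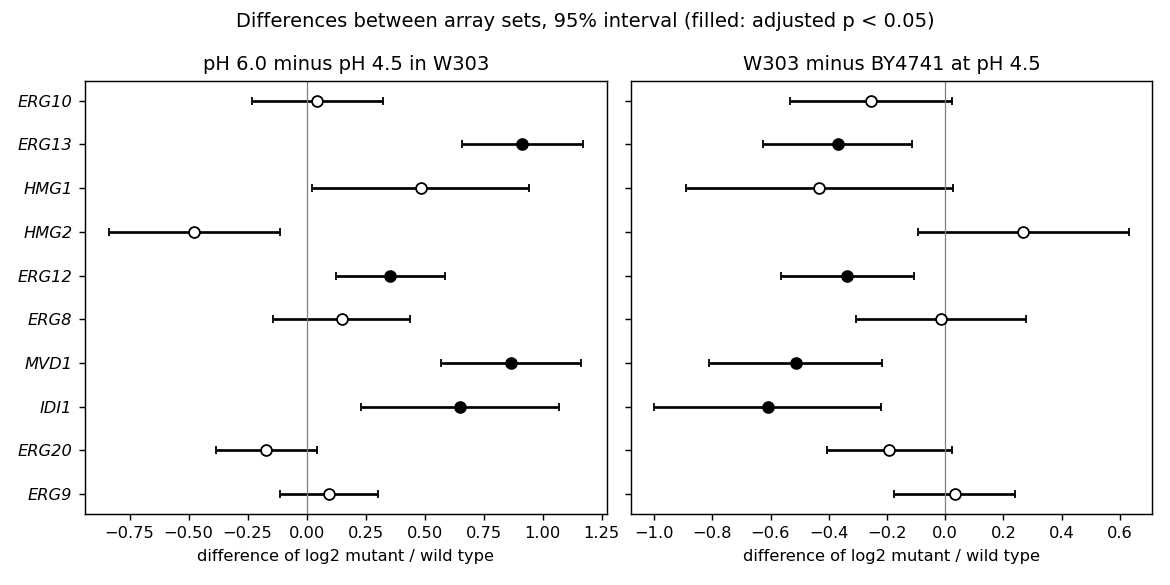
Difference between array sets in the log2 ratio of mutant over wild type (horizontal axes) for each pathway gene (vertical axis), as pH 6.0 minus pH 4.5 in W303 on the left and W303 minus BY4741 at pH 4.5 on the right. Bars are 95% intervals, and filled points were called. ERG13 and MVD1 lie at 0.91 and 0.87 on the left, and HMG2 has the opposite sign to HMG1 in both panels.

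At pH 6.0 the spread between arrays was larger. Standard errors of the 10 genes were 0.098 to 0.22 in W303 at pH 6.0, between 0.058 and 0.077 for W303 at pH 4.5, and between 0.059 and 0.094 for BY4741. In a fit of all 12 arrays, which lends pH 6.0 the spread of the other sets, 3 of the 10 genes were called lower at pH 6.0, against 11.6% of all genes. They were HMG2 (-0.62, adjusted p = 0.0024), HMG1 (-0.61, adjusted p = 0.012) and ERG20 (-0.42, adjusted p = 0.0011). The 95% intervals of ERG13 and MVD1 at pH 6.0 from the set alone, -0.48 to 0.15 and -0.30 to 0.37, leave out their means of -1.08 and -0.83 at pH 4.5.

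Genes around the pathway were read from 6 lists holding 55 genes. Their counts stand against the shares of all genes called, which were 1.44% lower and 1.92% higher in W303 at pH 6.0, 33.1% lower and 36.1% higher in W303 at pH 4.5, and 15.4% lower and 15.9% higher in BY4741. The late ergosterol enzymes, which turn squalene into ergosterol, were called lower in 1 of 14 cases in W303 at pH 6.0, 13 of 14 in W303 at pH 4.5 and 6 of 14 in BY4741, and higher in 0. Their medians were -0.32, -0.69 and -0.19 in that order, where the 10 pathway genes had -0.20, -0.34 and -0.26. The gene called at pH 6.0 was ERG27 (-0.53, adjusted p = 0.043), the sterol keto-reductase. The largest falls in W303 at pH 4.5 were those of ERG25, the C-4 methyl sterol oxidase (-1.27), ERG11, the lanosterol demethylase (-0.97), ERG2, the sterol isomerase (-0.93), and ERG3, the sterol desaturase (-0.82). In BY4741 ERG25 fell by 0.55, ERG7, the lanosterol synthase, by 0.52 and ERG1, the squalene epoxidase, by 0.40, and ERG6, the sterol methyltransferase, by 0.25. For pH 6.0 minus pH 4.5 in W303, 5 of the 14 were called higher and 1 lower, where 10.7% and 13.2% of all genes were. For W303 minus BY4741 at pH 4.5, 6 were called lower and 0 higher, where 9.55% and 10.9% were.

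Other branches draw on the pathway's products. Among 13 genes of prenylation, ubiquinone, dolichol, haem A and tRNA modification, 0 were called in W303 at pH 6.0, 5 fell and 5 rose in W303 at pH 4.5, and 4 fell and 1 rose in BY4741. The W303 counts at pH 4.5 were near the shares of all genes, 33.1% lower and 36.1% higher. The medians were -0.07, 0.05 and -0.04. BTS1, the geranylgeranyl diphosphate synthase, fell by 0.58 in W303 at pH 4.5 and RAM1, a farnesyltransferase subunit, by 0.54, while MOD5, the tRNA isopentenyltransferase, rose by 0.47. RER2, a dolichol synthase, fell by 0.38 there, and RAM2, the other farnesyltransferase subunit, rose by 0.37. In BY4741 MOD5 rose by 0.48, and CDC43, a subunit of a geranylgeranyl transferase, fell by 0.32, BTS1 by 0.30 and RAM1 by 0.25.

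Sterol ester and uptake genes were read next. Of 5, 6 and 6 genes tested in W303 at pH 6.0, W303 at pH 4.5 and BY4741, 0, 4 and 3 were called lower, where 1.44%, 33.1% and 15.4% of all genes were, and 0, 1 and 0 higher. YEH1, a sterol ester hydrolase, fell by 1.38 on the W303 arrays at pH 4.5 (n = 3, adjusted p = 1.2e-05) and by 1.00 (adjusted p = 0.00088) in BY4741. ARE2, the acyltransferase that esterifies ergosterol, fell by 1.15 (n = 3) in W303 at pH 4.5 and had a mean of 0.00 in BY4741, a called difference of -1.15 between the backgrounds (adjusted p = 0.015). AUS1, a sterol uptake transporter, rose by 0.20 on the W303 arrays at pH 4.5 (n = 3, adjusted p = 0.047) and fell by 0.86 in BY4741. ARE1, the second acyltransferase, fell by 0.21 in W303 at pH 4.5 and by 0.46 in BY4741. YEH2, a hydrolase related to YEH1, fell by 0.23 in W303 at pH 4.5 (adjusted p = 0.0075).

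The supply of cytosolic acetyl-CoA runs through pyruvate decarboxylase, aldehyde dehydrogenase and acetyl-CoA synthetase. Of 5, 5 and 6 genes tested in W303 at pH 6.0, W303 at pH 4.5 and BY4741, 0, 2 and 1 were called lower and 0, 2 and 0 higher, numbers near the shares of all genes (33.1% lower and 36.1% higher in W303 at pH 4.5). ACS2, the acetyl-CoA synthetase used on glucose, fell by 0.50 in W303 at pH 4.5 and had a mean of 0.01 in BY4741, a called difference of -0.51 (adjusted p = 0.012). PDC1, the main decarboxylase, rose by 0.55 in W303 at pH 4.5 and ALD6, the cytosolic aldehyde dehydrogenase, by 0.22. PDC6, a minor decarboxylase closely related to PDC1, fell by 0.35 there and by 0.41 in BY4741.

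Transcription factors of the sterol genes were followed through 5 genes. HAP1, the haem-responsive activator, whose reading frame carries a transposon insertion in S288C derivatives such as BY4741, rose by 0.87 (adjusted p = 2.4e-05) in W303 at pH 4.5 and by 0.63 (adjusted p = 0.0045) in BY4741, with 0.30 at pH 6.0, not called. Its difference for pH 6.0 minus pH 4.5 in W303, -0.57, was called (adjusted p = 0.022). ROX1, the repressor of hypoxic genes, had a mean of 0.92 at pH 6.0, not called, and fell by 0.71 in W303 at pH 4.5, and the difference between media of 1.62 was called (adjusted p = 0.00048). Of the related activators, UPC2 was called at -0.15 (adjusted p = 0.0498) in W303 at pH 4.5 and ECM22 at -0.66 (n = 3, adjusted p = 0.046) in BY4741, and neither was called for a difference between sets (adjusted p of 0.19 to 0.92). MOT3, a further repressor, was called in no set, with means of 0.60 (n = 3), -0.07 and -0.21 in W303 at pH 6.0, W303 at pH 4.5 and BY4741.

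The reductase proteins are degraded at the endoplasmic reticulum by the Hrd1 ubiquitin ligase system, and genes of that system and of the NSG proteins that stabilise HMG2 protein were read too. Of 9, 10 and 10 genes tested in W303 at pH 6.0, W303 at pH 4.5 and BY4741, 0, 1 and 0 were called lower and 0, 4 and 2 higher, where 1.92%, 36.1% and 15.9% of all genes were higher, so the numbers higher were near those shares. HRD1, the ligase, rose by 0.59 in W303 at pH 4.5, UBX2, which recruits the extraction machinery, by 0.47, and DER1, a membrane channel component, by 0.45, while NSG1 fell by 0.75. In BY4741 DER1 rose by 0.35 (n = 3) and UBX2 by 0.34. Of the 9 genes tested for differences between sets, HRD1 alone was called. It had -0.52 for pH 6.0 minus pH 4.5 in W303 (adjusted p = 0.0058) and 0.36 for W303 minus BY4741 at pH 4.5 (adjusted p = 0.038).

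**Figure D4:**
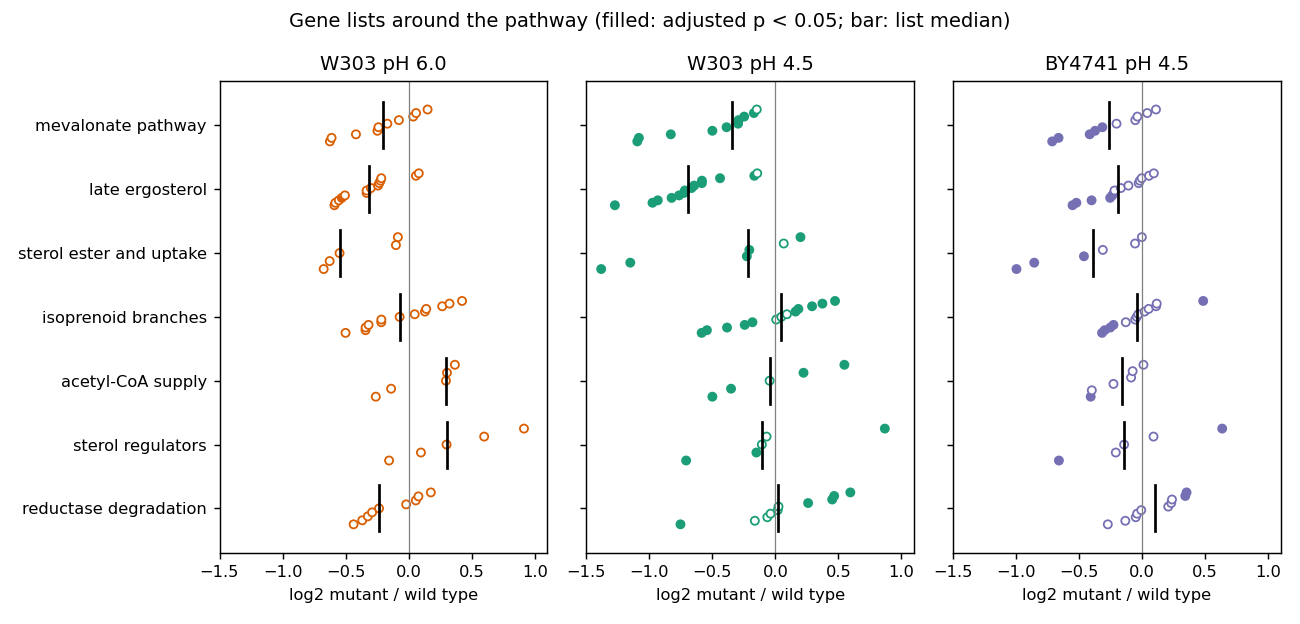
Log2 ratio of mutant over wild type (horizontal axes) of the genes in each list (rows), with a panel for each array set, filled where called and with a bar at the list median. The late ergosterol row lies furthest left in W303 at pH 4.5, with a median of -0.69, while the isoprenoid branch row is spread about 0 there with 5 called on each side.

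Genes whose ratios ran closest to the median of the pathway genes over the 12 arrays were GCD7, KEX2, YPS7, ADE3 and LOA1, out of 3669 other genes with a value on every array. Their mean absolute distance from that median was 0.083 to 0.094 on the log2 scale, against 0.10 for ERG8, the nearest member, and 0.54 for HMG1, the farthest. They encode a translation initiation factor subunit, a secretory protease, an aspartyl protease, a folate enzyme and an acyltransferase. These 5 genes were picked from 3669 by these same values, so their small distances, means and calls follow largely from that choice. The members were not picked in this way. Means of the 5 genes lay between -0.44 and -0.29 in W303 at pH 4.5, all called, and between -0.21 and -0.11 in W303 at pH 6.0, none called. Their BY4741 means were -0.28 to -0.17, with GCD7, KEX2 and LOA1 called and YPS7 (adjusted p = 0.064) and ADE3 (adjusted p = 0.054) not.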

How the data were processed

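The deposited table holds 1 log2 ratio of the 2 dyes for each open reading frame and array, per the labels' dye fields and the range of the values. The authors' background correction, normalisation and spot merging are not given in the sources used here, no scanner intensities were used, and no genome build is named. Array medians lie between -0.035 and 0.029. Ratios were turned to mutant over wild type by the dye of the mutant (7 arrays in Cy5, 5 in Cy3).

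Each set was fitted with limma 3.58.1 in R 4.3.3 (lmFit and eBayes, 1 mean per gene, at least 3 values), while the series' design text names SAM in its one-class form, which was not run. Differences between sets came from a fit of all 12 arrays with at least 3 values in every set. Alternatives were other minimum numbers of values, centred or scaled arrays, a dye term, other pooling of sets, robust eBayes, a replicate block and leaving out arrays. All tests are two-sided. Adjusted limma p-values carry Benjamini-Hochberg adjustment over all genes, and the exact p-values of HMG1 minus HMG2 are unadjusted. The fits were tested on simulated data in which each gene had the same spread in every set, so sets of unlike spread were not tested. The p-values weigh a mean or difference against the spread between these arrays. Symbols came from RefSeq R64 locus tags, which matched 5457 of the 5994 reading frames.

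The members and gene lists were chosen with earlier results of these data known. Named were all 10 members, the deleted genes and HIS3, up to 4 called genes with the largest change in each list and set, and the 5 genes nearest the members' median. MOT3, QCR8, AUS1 and RAM2 in W303 at pH 4.5, genes of a difference between sets and the uncalled values beside a called gene were named after their values were seen. A promoter motif search was not done, and no sequences were used here.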

Additional observations from a re-analysis of the deposited data

Results flagged for a closer look

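Of the 29 sets of 4 values, 2 held an array far from the others by Dixon's criterion, and chance gives about 1 in 20. HMG1 on replicate 2 of BY4741 had -0.73, where the nearest of the other arrays had -0.65. ERG13 on replicate 3 of W303 at pH 4.5 had -1.01, where the nearest had -1.10. In both cases the other 3 values lay within a very narrow range.

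The effect of the mutation differed between media in W303, by the contrast of pH 6.0 minus pH 4.5, for ERG13 (0.91), MVD1 (0.87), IDI1 (0.65) and ERG12 (0.35). The calls of IDI1 and ERG12 were lost with scaled arrays and without replicate 2, 3 or 4 of W303 at pH 4.5, while those of ERG13 and MVD1 held. In the fit of all 12 arrays the effect also differed between backgrounds at pH 4.5, by the contrast of W303 minus BY4741, for IDI1 (-0.61), MVD1 (-0.51), ERG13 (-0.37) and ERG12 (-0.34). With scaled arrays 0 of these were called and ERG13 turned to 0.018, and leaving out any 1 array of either set left 0 or 1 gene called. With the 2 sets alone 5 of the 10 genes were called lower, where 947 of all 5278 genes were. Over all genes, the 454 called lower became 217 with scaled arrays and 179 to 348 without 1 array. The contrasts share the 4 arrays of W303 at pH 4.5, and medium or strain cannot be told apart from anything else that differed between the array sets.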

How the results depend on the processing

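Among the 10 genes singly, settings other than leaving out an array changed 0 of 70 values across a call or sign in W303 at pH 4.5, 2 of 70 in BY4741, where ERG9 became called with a dye term or in a fit of all 12 arrays, and 3 of 69 in W303 at pH 6.0, all called in the fit of all 12 arrays. That fit raised the count called lower at pH 6.0 from 0 to 3. Requiring 1.5-fold as well left 3 genes in W303 at pH 4.5 and 2 in BY4741, with the share of all genes not counted. Without 1 array, the counts were 0 at pH 6.0, between 8 and 9 for W303 at pH 4.5, and between 4 and 5 for BY4741. Over all genes, 0 to 202, 1537 to 1720 and 338 to 639 were then called lower in the same order. For pH 6.0 minus pH 4.5, 2 genes were called higher with scaled arrays, 2 with the 2 sets alone, and 2 to 4 without 1 array. Over all genes, 253, 353 and 315 to 706 were called higher in those fits, against 511 in the main fit. For W303 minus BY4741, 5 of the 10 genes were called lower with the 2 sets alone, 0 with scaled arrays and 0 to 1 without 1 array. Over all genes, 947, 217 and 179 to 348 were called lower in those fits, against 454 in the main fit. HMG1 minus HMG2 stayed between -0.46 and -0.32 without 1 array, with exact p of 0.0049 to 0.034. Scaled arrays turned the sign of W303 minus BY4741 for ERG13 (0.018) and ERG8 (0.17) and of pH 6.0 minus pH 4.5 for ERG10 (-0.0089). Leaving out 1 array turned the sign of uncalled values near 0: ERG10 in BY4741 ranged from -0.13 to 0.042, ERG12 and MVD1 at pH 6.0 from -0.027 to 0.11 and from -0.053 to 0.17, ERG8 and ERG9 in W303 minus BY4741 from -0.083 to 0.03 and from -0.0068 to 0.067, and ERG10 in pH 6.0 minus pH 4.5 from -0.029 to 0.10. The causes were not tested. Over all genes and both directions, the 163 calls at pH 6.0 became 2 to 484 without 1 array (484 without replicate 3) and 1102 in the fit of all 12 arrays. The 1714 calls in BY4741 became 739 without replicate 3 and 909 without replicate 4. For W303 minus BY4741, 971 calls became 426 with scaled arrays, 2012 with the 2 sets alone and as few as 440 without 1 array, and for pH 6.0 minus pH 4.5, 1139 became 580 with scaled arrays and 730 without replicate 4 of W303 at pH 4.5. No signal over background was known, so faint spots could not be set apart.

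Deviations of same-numbered arrays from their set means correlated between -0.17 and 0.21. Differently numbered arrays were not compared in this way, so whether the replicate numbers of the titles pair the arrays was not settled. With the replicate block, W303 minus BY4741 had 2 genes called lower, MVD1 and IDI1, and pH 6.0 minus pH 4.5 had 3 called higher, with ERG12 lost.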
